A study of Homo sapiens with 9 samples.

Results

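The mRNAs of 10 secreted signalling proteins were followed across RNA-seq libraries of A549, a human lung adenocarcinoma line that is epithelial in origin. They are the interleukins and colony-stimulating factors *IL6*, *LIF*, *IL11*, *IL1A*, *IL1B*, *IL18*, *IL32*, *IL33*, *CSF1* and *CSF2*, chosen by name as 10 of the 26364 gene rows of the count table. All 10 were described in all 9 libraries, and between 7 and 8 of them passed the filter on low counts in any comparison.

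The control group (2 libraries, genotype label WT) was A549 without fusion guides. The *LA* group (2 libraries, genotype label sgLOC388942; sgALK) was A549 in which both guides had produced the intergenic *LOC388942-ALK* fusion. The sgScr group (3 libraries) and the sg*FOS* group (2 libraries) were *LA* cells that also carried a scramble guide or a guide against *FOS*. All groups were grown in RPMI medium with serum and received no drug by their labels. Fusion cells were made in Cas9-expressing A549 and grown out from single cells, so that the fusion and the founding clone cannot be told apart. Which clone and which *FOS* guide went into which library is not given in the sources used here, nor is whether the control cells carried Cas9. No label says that replicates were separate cultures, so the p-values measure only the spread between these libraries, which may be technical.

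Cytokines of these families signal in short loops between a tumour cell and its surroundings. *IL6*, *LIF* and *IL11* encode ligands that share the receptor subunit gp130 (*IL6ST*) and act through JAK kinases and STAT3, with SOCS proteins as feedback inhibitors. *IL1A*, *IL1B*, *IL18* and *IL33* belong to the IL-1 family, whose receptors signal through MYD88 and IRAK proteins to NF-kappa B. IL-1β and IL-18 are made as precursors that caspase-1 cuts in the inflammasome, so that the mRNA level says nothing of the released protein. *IL32* encodes an inflammatory cytokine without close relatives. *CSF1* and *CSF2* encode the growth factors M-CSF and GM-CSF of macrophages and granulocytes. Several of these mRNAs are short-lived and are cleared through AU-rich elements by proteins such as tristetraprolin (*ZFP36*). The transcription factor encoded by *FOS* is a subunit of AP-1, which together with NF-kappa B controls many cytokine genes.

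The start regions of 3 genes, *IL6*, *IL11* and *IL32*, are shown. The study edited an AP-1 subunit, and AP-1 and NF-kappa B sites are the best known elements of such genes. The 3 were picked from these same data by the size of their called changes, and not all of those calls stand. The *IL6* calls are no separate support, since the filter kept that gene through the *LA* libraries alone. The *IL32* call in *LA* against control was lost with the length and GC correction described below. Its call in sg*FOS* against sgScr was kept. Each run is the 150 bases before the start site in RefSeq (GRCh38.p14), read 5′ to 3′ on the gene's strand, with motif matches in capitals. RefSeq start regions were matched for 7 of the 10 genes, and none was printed for *LIF*, *IL18* and *CSF1*. The *IL6* run is chr7:22727050-22727199 on the plus strand, and its capitals mark a match to the NF-kappa B consensus.
IL6: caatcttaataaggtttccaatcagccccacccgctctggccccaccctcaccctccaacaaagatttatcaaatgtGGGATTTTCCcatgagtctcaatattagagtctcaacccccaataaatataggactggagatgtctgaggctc
The *IL11* run is chr19:55370464-55370613 on the minus strand, and its capitals mark an AP-1 match (TGANTCA).
IL11: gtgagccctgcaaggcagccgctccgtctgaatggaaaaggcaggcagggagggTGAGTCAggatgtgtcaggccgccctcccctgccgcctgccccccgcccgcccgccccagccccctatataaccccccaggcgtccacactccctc
*IL32* has 2 start sites in RefSeq. The run before the first is chr16:3065253-3065402 on the plus strand, the window before the other held no match, and the capitals mark a CRE match (TGACGTCA) and an NF-kappa B match.
IL32: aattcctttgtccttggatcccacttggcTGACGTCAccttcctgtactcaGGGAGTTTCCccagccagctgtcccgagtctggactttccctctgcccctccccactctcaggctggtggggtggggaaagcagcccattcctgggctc
Searched on both strands in the 250 bases before each start, TGANTCA was present in 6.57% of all 35116 RefSeq start regions, TGACGTCA in 1.65% and the NF-kappa B consensus in 6.88%. Among the other genes *IL1A*, called in no comparison, had 2 TGANTCA matches in the window of one of its overlapping start sites, and *IL1B*, *IL33* and *CSF2* had none of the 3 motifs. Such a match is a description of the letters and not evidence of binding.

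Total counts per library ranged from 14507228 to 20456341. Replicates of control and of *LA* differed far more than counting error, at 125 and 58.1 times the chi-square that counting error gives, against 1.74 to 2.65 times between replicates of sgScr and sg*FOS*. Fold changes against control rose with transcript length across genes (Spearman's rho 0.57 for *LA* over 14142 genes and 0.59 for sgScr over 14201), which are not independent replicates. Values corrected for length and GC content are therefore given beside the calls on the 10 genes that it moved, and as counts for the gene lists. The leukocyte markers *PTPRC* and *CD3E* had no counts in any library. The 6 leukocyte markers together summed to 53.9 to 74.7 CPM (counts scaled to library size, TMM-normalised) in control, 39.3 in both *LA* libraries, 38.1 to 39.7 in sgScr and 53.9 to 56.6 in sg*FOS*. This sum came almost wholly from *CD14* and *CD68*. *CD14* was at 41.4 and 29.1 CPM in control, 15.5 and 13.7 in *LA*, 8.64, 9.13 and 8.58 in sgScr, and 9.53 and 8.14 in sg*FOS*. *CD68* was at 33.2 and 24.6 CPM in control, 23.5 and 25.3 in *LA*, 30.5, 29.5 and 29.1 in sgScr, and 46.8 and 45.6 in sg*FOS*. The 5 epithelial markers summed to 10360 to 17324 CPM in control, 5542 to 10239 in *LA*, 4742 to 5061 in sgScr and 5527 to 5699 in sg*FOS*. The part of these differences between libraries and markers in the results was not tested.

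*FOS*, the targeted gene, was checked first. Its level was 10.5 and 9.14 CPM in control, 336 and 91.6 in *LA*, 202, 198 and 205 in sgScr, and 68.6 and 74.3 in sg*FOS*. Every fusion library lay above both control libraries, and both sg*FOS* libraries lay below every sgScr library. The log2 fold change was 4.41 (SE 0.54, edgeR adjusted p = 2.0e-05) for *LA* against control and -1.48 (SE 0.044, adjusted p = 2.0e-25) for sg*FOS* against sgScr. A guide edits DNA, so the mRNA count need not show loss of the protein.

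Levels were compared between genes as CPM per kilobase of the canonical transcript, by group mean. Within single libraries the order of the 5 highest genes was the same for all replicates of control, of *LA* and of sgScr, and the overlaps given are between the ranges over libraries. In control, *IL18* had the highest level, 114.7 ± 15.2 CPM per kb (SD, n = 2), followed by *IL32* (32.5 ± 18.2), *LIF* (16.9 ± 4.0) and *CSF1* (11.9 ± 2.34). *IL11* stood at 1.18 ± 0.307 and the other 5 genes lower still. The ranges of *IL32* and *LIF* over the control libraries overlapped. In *LA* the order was *IL18* (82.0 ± 11.4 CPM per kb, n = 2), *LIF* (25.0 ± 8.34), *CSF1* (20.5 ± 5.96), *IL32* (12.0 ± 6.62) and *IL11* (7.21 ± 2.54), and from *LIF* to *IL11* each neighbouring pair overlapped. In sgScr it was *IL18* (46.7 ± 1.48, n = 3), *LIF* (32.9 ± 1.43), *CSF1* (31.1 ± 0.532) and *IL32* (14.4 ± 0.921), with *LIF* and *CSF1* overlapping. In sg*FOS* *CSF1* (35.7 ± 0.204, n = 2) and *IL32* (35.3 ± 1.02) overlapped below *IL18* (51.4 ± 4.14) and above *LIF* (29.9 ± 3.08).

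*IL18* thus gave 60.6% to 69.2% of the summed per-kilobase level of the 10 genes in control, 50.9% to 59.2% in *LA*, 35.2% to 37.5% in sgScr and 30.7% to 34.4% in sg*FOS*. *CSF1* went the other way, from 6.56% to 6.84% in control to 13.0% to 14.0% in *LA*, 23.9% to 24.6% in sgScr and 22.5% to 22.7% in sg*FOS*. *IL32* gave 13.1% to 21.9% in control, 5.84% to 9.42% in *LA*, 10.5% to 11.9% in sgScr and 21.9% to 22.8% in sg*FOS*. *LIF* gave 9.36% to 9.53%, 15.3% to 17.4%, 24.6% to 26.8% and 17.6% to 20.3% in the same order of groups. These shares are of mRNA in these 10 genes alone, and a fall in one raises the rest.

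**Figure D1:**
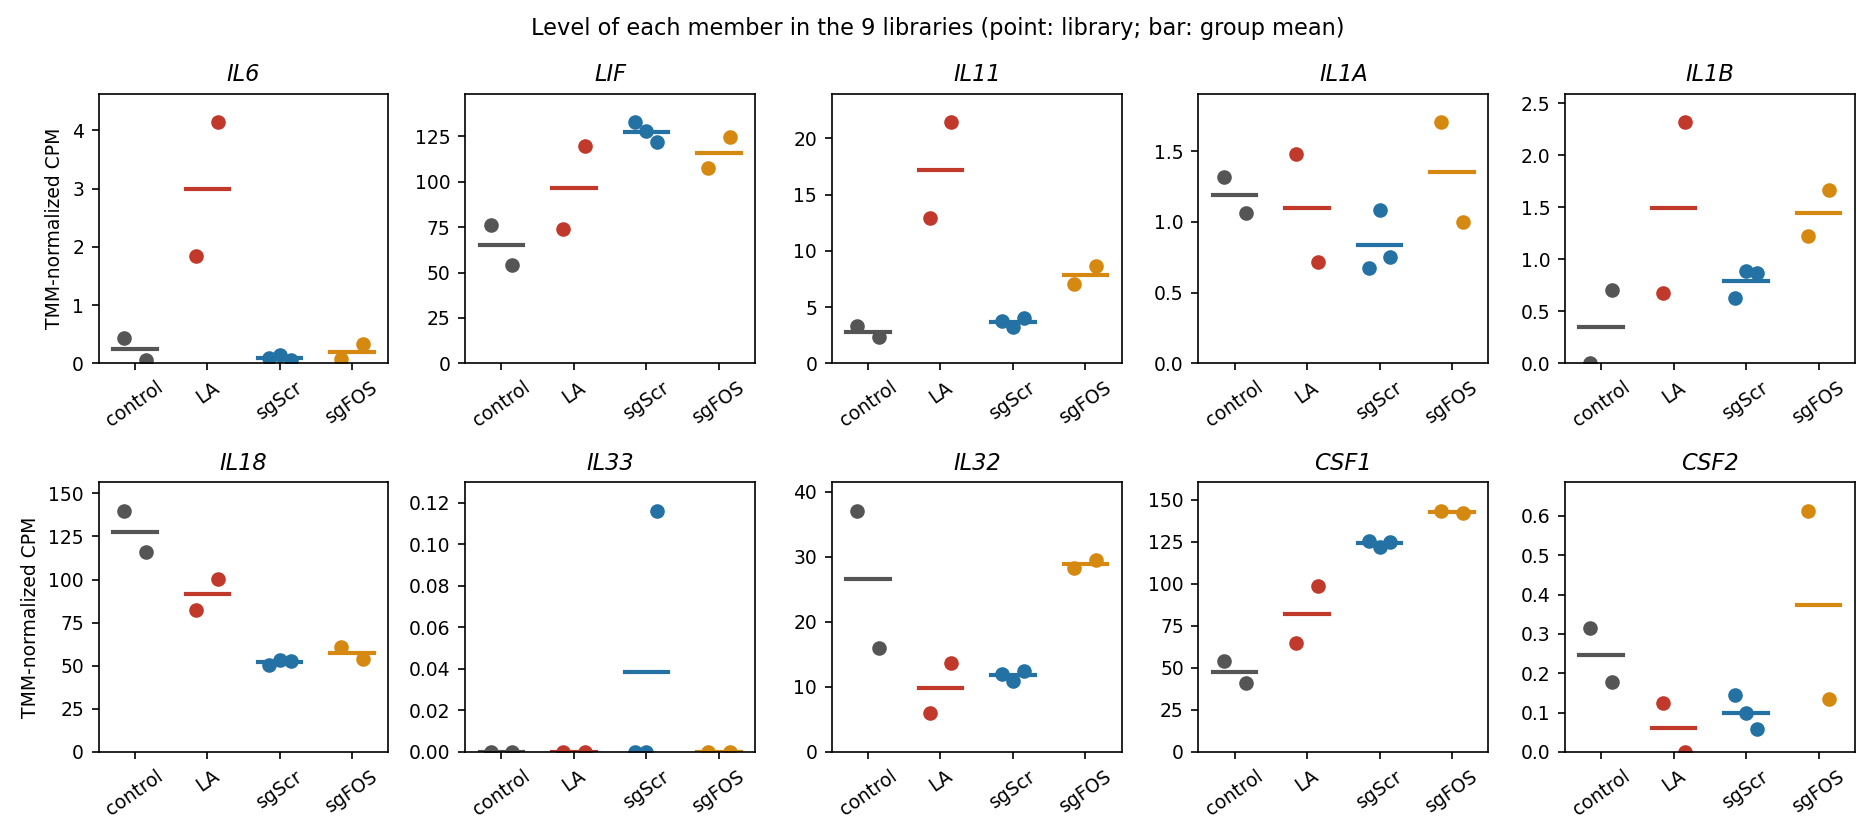
Level of each gene in each of the 9 libraries, in TMM-normalised CPM, by group. Each point is a library and each bar a group mean. IL6 and IL11 are highest in the 2 LA libraries, while CSF1 is at 122 to 126 CPM in sgScr and 142 to 143 CPM in sgFOS against 41.0 to 54.2 CPM in control.

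**Figure D2:**
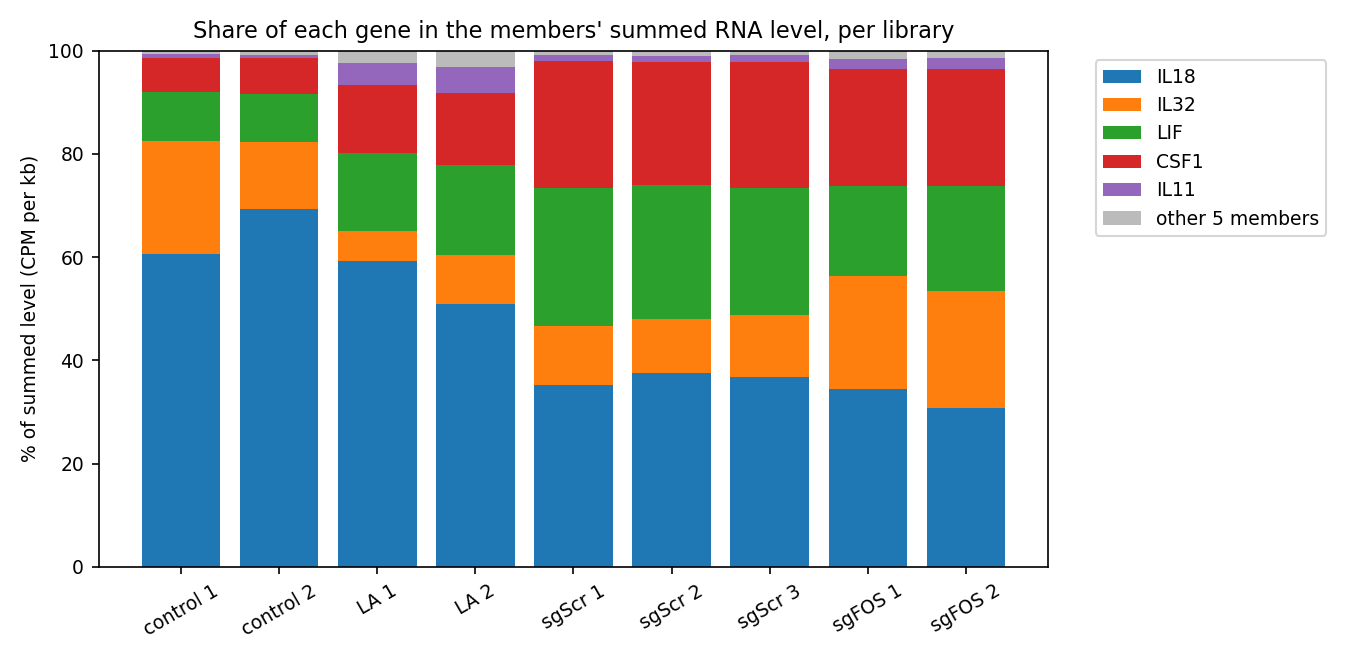
Share of each gene in the summed level of the 10 genes, on the per-kilobase scale, in percent, for each library. IL18 falls from 60.6% to 69.2% in control to 30.7% to 34.4% in sgFOS.

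The first comparison was *LA* against control, which asks what goes with the fusion. *IL11* rose and *IL32* fell, so that 2 of the 7 tested genes other than *IL6* were called at an edgeR adjusted p under 0.05, against 19.5% of all genes tested. *IL6*, also higher in *LA*, is left out of that count because it passed the filter through the *LA* libraries alone.

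*IL6*, the ligand of the IL-6 receptor (GRCh37 chr7:22765503-22771621, plus strand, 5 exons), had 7 and 1 counts in control and 30 and 75 in *LA*, or 0.440 and 0.0590 against 1.85 and 4.14 CPM. Both *LA* libraries lay above both control libraries, though all 4 were low. Its edgeR adjusted p of 0.00927 is no separate support, since the filter kept the gene through the *LA* libraries alone. The log2 fold change was 3.53 (SE 0.91). From 105 against 8 summed counts, scaled for library size, it was 12.6-fold with a 95% interval of 6.14 to 29.9 that covers counting error only. Without *LA* replicate 2 or control replicate 2 its adjusted p was 0.255 and 0.0543.

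*IL11*, a gp130 ligand known from fibrosis and bone (chr19:55875750-55881831, minus strand, 5 exons), had 3.33 and 2.30 CPM in control and 12.9 and 21.4 in *LA*. The groups did not overlap. Its log2 fold change was 2.57 (SE 0.52, adjusted p = 0.00241), and 2.82 (adjusted p = 0.00404) after the length and GC correction. Without *LA* replicate 2 the adjusted p was 0.0917.

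*IL32* (chr16:3115298-3132193, plus strand, 7 exons) had 37.1 and 16.0 CPM in control and 5.98 and 13.6 in *LA*. The groups did not overlap, but the lower control library and the higher *LA* library were close. The log2 fold change of -1.48 (SE 0.50, adjusted p = 0.0397) shrank to -0.35 (adjusted p = 0.569) with the length and GC correction. Its adjusted p was 0.345 without control replicate 1, 0.495 without *LA* replicate 1 and 0.116 without *LA* replicate 2.

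The third gp130 ligand, *LIF*, which maintains stem cells and acts on many tissues, did not pass the test. Its levels were 76.3 and 54.4 CPM in control and 73.8 and 119 in *LA*, which overlap, and its log2 fold change was 0.52 (SE 0.41, adjusted p = 0.376). *CSF1*, the growth factor of macrophages, had 54.2 and 41.0 CPM in control and 65.0 and 98.7 in *LA*. These did not overlap, yet with a log2 fold change of 0.74 (SE 0.40) the adjusted p was 0.197. *IL18* had a log2 fold change of -0.52 (SE 0.39, adjusted p = 0.363) that turned to 0.10 with the length and GC correction. *IL1B*, with 0 and 12 counts in control and 11 and 42 in *LA*, had 2.0 (SE 1.01, adjusted p = 0.161), and *IL1A* had -0.16 (SE 0.77, adjusted p = 0.913).

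Of the 8 tested genes, 7 had a higher level in *LA* replicate 2 than in replicate 1, the exception being *IL1A*, and 7 were higher in control replicate 1 than in control replicate 2, the exception being *IL1B*. *FOS* was the reverse, at 336 CPM in replicate 1 and 91.6 in replicate 2. The *LA* replicates thus differed by 2.24-fold in *IL6*, 1.66-fold in *IL11* and 2.28-fold in *IL32*, and the sgScr replicates by up to 2.54-fold in *IL6*, at 1 to 3 counts, 1.25-fold in *IL11* and 1.13-fold in *IL32*. Without *LA* replicate 2, 0 of the 8 genes were called by edgeR, 3 had an unadjusted p under 0.05, and 1.71% of all genes were called.

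**Figure D3:**
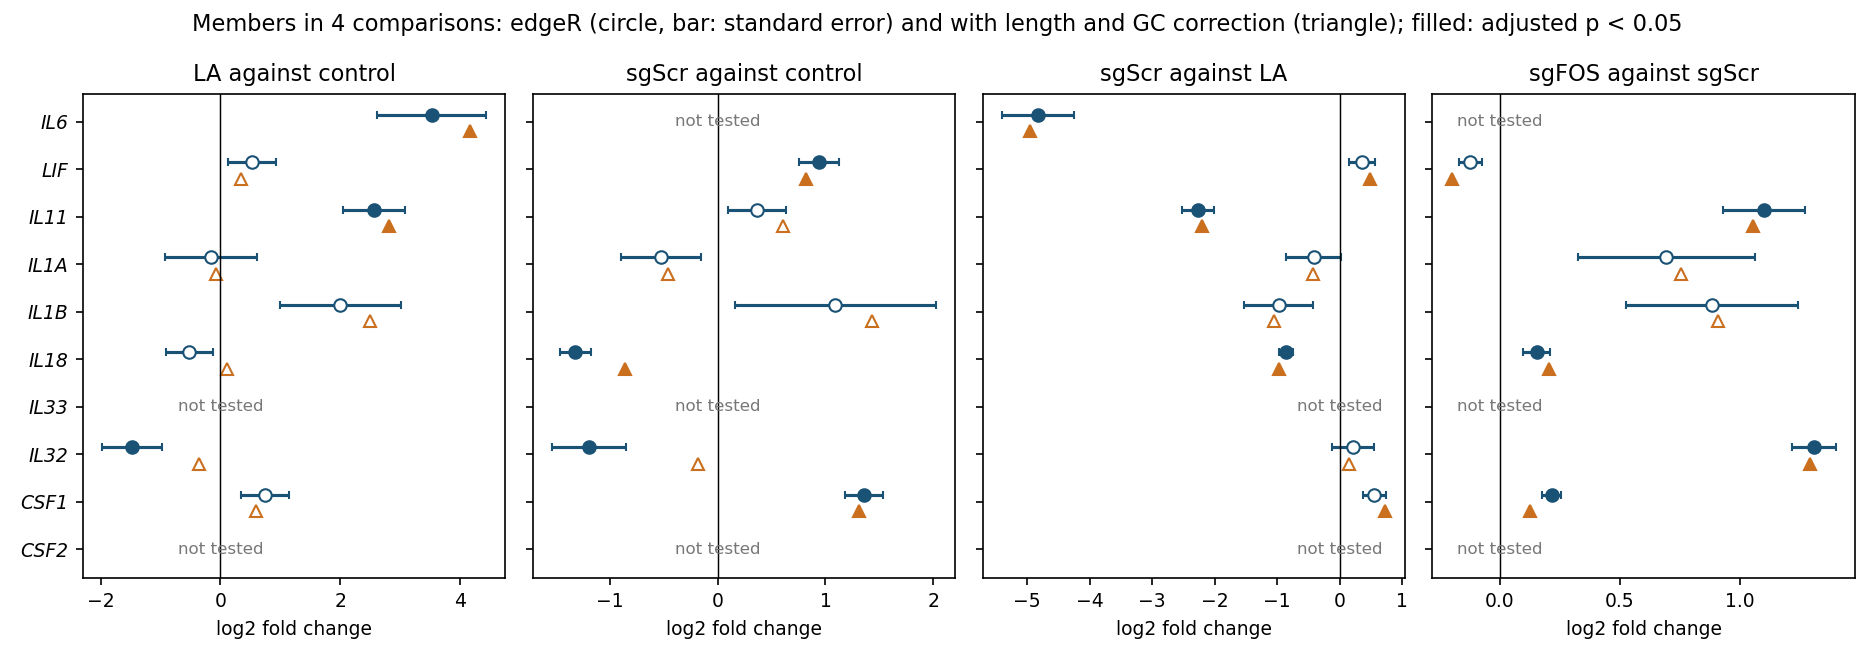
Log2 fold change of each tested gene in the 4 comparisons, as circles with bars of 1 standard error, and with the length and GC correction as triangles, filled where the adjusted p was under 0.05. IL6 and IL11 lie right of 0 for LA against control and left of 0 for sgScr against LA, IL32 lies right of 0 for sgFOS against sgScr, and the x axes differ between panels.

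The same question was put with the sgScr libraries, which also carry the fusion and share the control libraries with the first comparison. *LIF* and *CSF1* were higher and *IL18* and *IL32* lower, 4 of 7 tested genes, against 41.5% of all genes tested. *IL6* was too low to be tested here.

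*CSF1* (chr1:110452864-110473614, plus strand, 9 exons) reached 126, 122 and 125 CPM in sgScr against 54.2 and 41.0 in control. All sgScr libraries lay above both control libraries, with a log2 fold change of 1.36 (SE 0.17, adjusted p = 0.00610). *LIF* (chr22:30636442-30642748, minus strand, 3 exons) was at 133, 128 and 122 CPM against 76.3 and 54.4, with a log2 fold change of 0.94 (SE 0.19, adjusted p = 0.0131). Neither gene overlapped between the groups. With the length and GC correction the values were 1.31 and 0.82.

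*IL18*, which drives interferon-γ in T and NK cells (chr11:112013976-112034819, minus strand, 6 exons), was at 50.2, 53.4 and 52.5 CPM in sgScr against 140 and 116 in control. The groups were far apart. The log2 fold change was -1.32 (SE 0.15, adjusted p = 0.00486), and -0.86 (adjusted p = 0.00426) after correction. *IL32* was at 12.0, 10.95 and 12.4 CPM, below both control libraries, with -1.19 (SE 0.34, adjusted p = 0.0366). The correction took *IL32* to -0.19 (adjusted p = 0.374), so that its call did not hold.

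*IL11* was at 3.75, 3.24 and 4.06 CPM in sgScr and 3.33 and 2.30 in control, so the groups overlapped, with a log2 fold change of 0.36 (SE 0.27, adjusted p = 0.308). *IL1A* had -0.53 (SE 0.37, adjusted p = 0.285) and *IL1B* 1.09 (SE 0.93, adjusted p = 0.377). Leaving out any 1 sgScr library left 0 of 7 genes called by edgeR, with 4 at an unadjusted p under 0.05 each time. Of all genes 0.918%, 0.0211% and 0.0209% were called in these fits.

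Because both groups carry the fusion, sgScr was then set against *LA*. *IL11* and *IL18* were called lower in sgScr, 2 of the 7 tested genes other than *IL6*, against 22.9% of all genes tested, and none was called higher. *IL6* passed the filter through the *LA* libraries alone and is given by its counts. *IL6* had 2, 3 and 1 counts in sgScr against 30 and 75 in *LA*, so all 3 sgScr libraries were at or under the floor of 3 counts. Its ratio of *LA* to sgScr, from 105 and 6 summed counts, was 29.8 with a counting interval of 13.2 to 82.9. *IL11* fell by 2.27 on the log2 scale (SE 0.26, adjusted p = 0.00456), with all sgScr libraries below both *LA* libraries.

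*FOS* in these groups had a log2 difference of -0.12 (SE 0.47, adjusted p = 0.873), and its *LA* libraries lay on both sides of the sgScr libraries. *IL18* was at 82.5 and 100.4 CPM in *LA*, above all sgScr libraries, with -0.86 (SE 0.11, adjusted p = 0.00663). Its adjusted p was 0.0529 to 0.0623 without any 1 sgScr library. *LIF* (0.35, SE 0.21, adjusted p = 0.250) and *CSF1* (0.56, SE 0.18, adjusted p = 0.0740) were not called, and the correction gave 0.48 (adjusted p = 0.0305) and 0.72 (adjusted p = 0.00459). *IL32* (0.21, adjusted p = 0.669) and *IL1B* (-0.98, adjusted p = 0.238) also missed the threshold. The groups differ by the scramble guide and by whatever else separated the experiments, and these cannot be told apart.

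The last comparison, sg*FOS* against sgScr, asks what goes with *FOS* editing in fusion cells. *IL11*, *IL32*, *CSF1* and *IL18* were higher, 4 of 7 tested genes, against 22.7% of all genes tested, and none was lower.

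*IL32* had 28.3 and 29.5 CPM in sg*FOS* against 12.0, 10.95 and 12.4 in sgScr. The sg*FOS* libraries were well above all sgScr libraries, and both were close together. The log2 fold change was 1.31 (SE 0.091, adjusted p = 3.7e-14) and 1.29 after correction. *IL11* had 7.01 and 8.61 CPM against 3.75, 3.24 and 4.06, again without overlap, with a log2 fold change of 1.10 (SE 0.17, adjusted p = 4.3e-06) and 1.05 after correction. Both levels of *IL11* in sg*FOS* were still below both *LA* libraries.

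*CSF1* moved less, from 122 to 126 CPM in sgScr to 143 and 142, a log2 fold change of 0.22 (SE 0.039, adjusted p = 6.2e-05) that was 0.12 (adjusted p = 0.0349) after correction. *IL18* had 60.6 and 54.1 CPM and a log2 fold change of 0.15 (SE 0.057, adjusted p = 0.0472). That call was made in 8 of 14 other settings, with log2 fold changes from 0.069 to 0.23. Among the settings that lost it were DESeq2 (adjusted p = 0.189) and edgeR without the filter on low counts (adjusted p = 0.0635). It was also lost with all 9 libraries in 1 edgeR fit and without sg*FOS* replicate 1. *LIF*, at 107.5 and 124 CPM, had -0.12 (SE 0.048, adjusted p = 0.0554) and was called lower after correction (-0.20, adjusted p = 0.000833). *IL1B* had 0.89 (SE 0.36, adjusted p = 0.0720) and *IL1A* 0.69 (SE 0.37, adjusted p = 0.184).

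*IL1A* and *IL1B*, the genes of the main IL-1 ligands (chr2:113531502-113542070 and chr2:113587328-113594393, both on the minus strand with 7 exons), stayed low everywhere. *IL1A* had 13 to 25 counts in each library and *IL1B* 0 to 42. Neither was called in any of the 4 comparisons. *CSF2* (chr5:131409482-131411863, plus strand, 4 exons) had 0 to 9 counts and was not tested. Its summed counts were 11 in sg*FOS* and 6 in sgScr, a ratio of 3.61 with a counting interval of 1.22 to 11.9 that leaves out the spread between libraries. Of the 11 counts, 9 were in sg*FOS* replicate 1, and replicate 2 alone gave a ratio of 1.30 (0.128 to 7.27), chosen after seeing the data. *IL33* (chr9:6215786-6257983, plus strand, 8 exons) had 2 counts in sgScr replicate 3 and none in the other 8 libraries, and was not detectable at this depth.

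**Figure D4:**
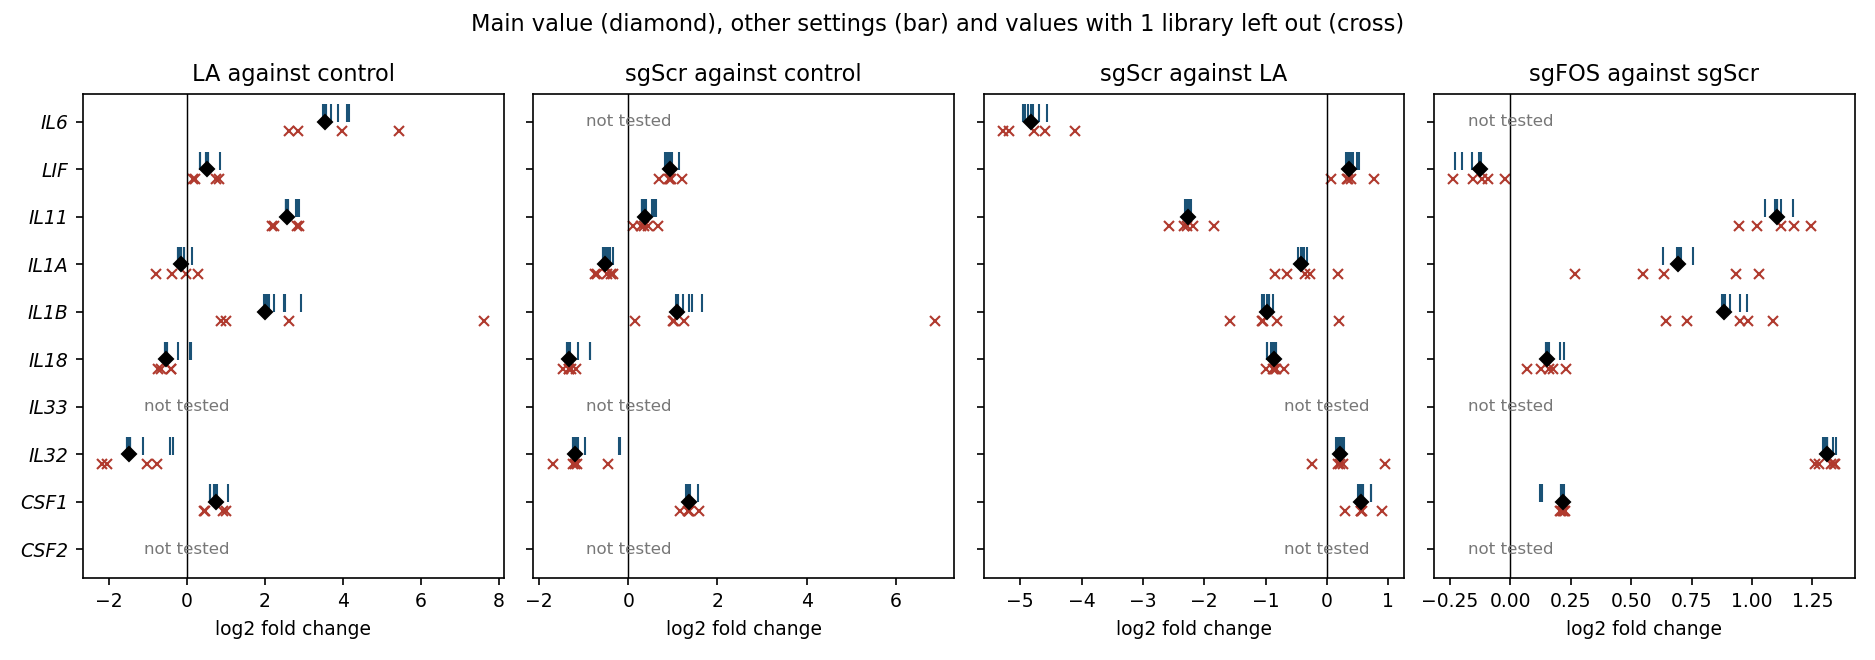
Log2 fold change of each tested gene in the 4 comparisons as reported (diamond), under other settings (bar) and with 1 library left out (cross). IL32 against control approaches 0 with the length and GC correction, -0.35 in LA and -0.19 in sgScr, while IL6, IL11 and CSF1 keep their sign.

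Receptors, inhibitors and partners of these cytokines were read from 11 lists of 113 genes, of which 32 had at most 3 counts in every library. In *LA* against control 64 could be tested, with 17 higher and 2 lower, 29.7% called against 19.5% of all genes, and a median log2 fold change of 0.61 against 0.044 over all genes tested. After correction 9 of these calls held, and the median was 0.51. The genes tested there include *CSF3*, *SOCS1* and *IRAK3*, which the filter kept through the *LA* libraries alone. They are high in that group, so the share called and the median are no separate support for a rise. In sgScr against control it was 61 tested, 17 higher and 7 lower, 39.3% called against 41.5% (median 0.37 against 0.019), and after correction 16 calls held with a median of 0.17. In sgScr against *LA* 63 were tested, 3 higher and 9 lower, 19% called against 22.9% (median -0.20 against -0.016). The lower calls there include genes that the filter kept through the *LA* libraries alone. In sg*FOS* against sgScr 63 were tested, 11 higher and 7 lower, 28.6% called against 22.7% (median 0.024 against -0.0015). In these comparisons 11 and 14 calls held after correction.

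The gp130 family receptors were led by *IL6ST* itself, the shared signalling subunit, which was 1.84 higher on the log2 scale in *LA* than in control (SE 0.44, adjusted p = 0.00606) and 1.01 after correction. *LIFR* (1.70, adjusted p = 0.0174) and *OSMR* (1.32, adjusted p = 0.0322), the receptors of LIF and oncostatin M, had adjusted p of 0.156 and 0.119 after it. They were 3 higher and 0 lower of 6 tested (50% called against 19.5% of all genes tested). In sgScr it was 4 higher and 0 lower of 6 (66.7% against 41.5%), where 3 held after correction. With *FOS* editing *IL6R*, the receptor that binds IL-6, was 0.24 higher and *IL6ST* had -0.15, and both calls were lost with the correction (adjusted p = 0.131 and 0.177).

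Of the other gp130 ligands, *EBI3* and *CLCF1* were called in 3 comparisons. *CLCF1*, a ligand of the CNTF receptor, was at 40.35 and 31.5 CPM in control, 51.9 and 63.0 in *LA*, 22.8, 25.1 and 23.1 in sgScr, and 28.05 and 30.6 in sg*FOS*. It was thus lowest in sgScr, with a log2 fold change of -1.32 against *LA* (SE 0.12, adjusted p = 0.00283), and 0.32 higher in sg*FOS* than in sgScr (adjusted p = 0.00194). *EBI3*, a subunit of IL-27 and IL-35, showed -1.41 and 1.01 in the same comparisons. Against control both were called lower in sgScr, but not after the length and GC correction (adjusted p = 0.784 for *CLCF1* and 0.543 for *EBI3*). That list had 0 of 3 tested genes called by edgeR in *LA* against control, with 0 at an unadjusted p under 0.05. It had 2 of 2 lower in sgScr against control, 3 of 3 lower in sgScr against *LA* and 2 of 2 higher with *FOS* editing. Of all genes tested 19.5%, 41.5%, 22.9% and 22.7% were called in these comparisons. The gene called lower in sgScr against *LA* besides *EBI3* and *CLCF1* passed the filter through the *LA* libraries alone.

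Among the IL-1 family receptors and decoys, *LA* against control had 2 higher and 1 lower of 5 tested (60% called against 19.5% of all genes). *IL1RAP*, the shared accessory chain, was 1.92 higher (adjusted p = 0.0192) and *IL1R1*, the signalling receptor, 1.34 higher (adjusted p = 0.0246, 0.0966 after correction), while the inhibitory receptor gene *SIGIRR* had a log2 fold change of -1.93 (adjusted p = 0.00523). The same genes were called in sgScr against control, 2 higher and 1 lower of 6 (50% against 41.5%). With *FOS* editing *IL1R1* fell by 0.24 on the log2 scale (adjusted p = 0.000611), 1 of 6 (16.7% against 22.7%). None of the 7 other IL-1 family ligand genes could be tested in any comparison.

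*PYCARD*, the adaptor that links inflammasome sensors to caspase-1, had 24.9 and 8.55 CPM in control and 3.08 and 3.81 in *LA*, 2.50, 2.01 and 2.09 in sgScr and 2.59 and 3.40 in sg*FOS*. All fusion libraries were below both control libraries. The log2 fold change was -2.31 (adjusted p = 0.00549, 0.106 after correction) for *LA* and -2.94 (adjusted p = 0.00827, 0.00362 after correction) for sgScr. Its list covers the inflammasome and other processing of the IL-1 family. *PYCARD* was 1 of 6 tested genes called in each (16.7% against 19.5% and 41.5% of all genes tested). With *FOS* editing 2 of 6 were higher (33.3% against 22.7%), and neither was an inflammasome sensor, adaptor or caspase. They were *CAPN2* and *CAPN1*, by 0.18 and 0.14, the latter lost after correction (adjusted p = 0.398).

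In IL-1 and IL-18 receptor signalling, 4 of 13 genes were higher in *LA* than in control and 0 lower (30.8% called against 19.5% of all genes tested). Of the 4 calls 2 held after correction. *IRAK2*, a kinase-like adaptor, was at 10.9 and 14.6 CPM in control, 26.9 and 95.2 in *LA*, 19.5, 21.2 and 21.0 in sgScr, and 40.0 and 39.2 in sg*FOS*. It was higher in *LA* and rose again with *FOS* editing, by 2.21 (adjusted p = 0.00452) and 0.96 (adjusted p = 4.1e-13) on the log2 scale. *PELI2*, a ubiquitin ligase of the pathway, was 2.08 higher in *LA* than in control (adjusted p = 0.00439) and had -1.78 in sgScr against *LA* (adjusted p = 0.00168). The list had 4 higher and 1 lower in sgScr against control, 0 and 2 in sgScr against *LA*, and 3 and 1 with *FOS* editing. These are 38.5%, 15.4% and 30.8% of its genes, against 41.5%, 22.9% and 22.7% of all genes tested. After correction 3, 1 and 3 of the calls held.

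Of the colony-stimulating factor receptors only *CSF2RA*, the GM-CSF receptor alpha chain, could be tested. It had a log2 fold change of -0.82 in sgScr against control (adjusted p = 0.0137), and 0.82 higher with *FOS* editing (adjusted p = 3.1e-07). Among the other haematopoietic ligands *KITLG*, which encodes stem cell factor, was at 5.72 and 15.3 CPM in control, 59.3 and 72.1 in *LA*, 24.8, 24.9 and 23.9 in sgScr and 31.5 and 30.5 in sg*FOS*. It was 2.60 higher in *LA* (adjusted p = 0.00141), -1.46 in sgScr against *LA* (adjusted p = 0.00189) and 0.35 higher with *FOS* editing (adjusted p = 0.000420). Of that list 1 of 3, 1 of 2, 2 of 3 and 1 of 4 tested genes were called in the 4 comparisons in turn. The shares of all genes tested were 19.5%, 41.5%, 22.9% and 22.7%. The call in sgScr against control did not hold after correction. *CSF3* had 3 to 22 counts per library, with 20 and 22 in *LA* and 12, 6 and 3 in sgScr. Its call in sgScr against *LA* (-1.80, edgeR adjusted p = 0.0463), counted above, is no separate support for a difference. The filter kept *CSF3* there through the *LA* libraries alone. Of the 26 other interleukin genes 3 or 4 were tested and 0 called by edgeR in each comparison, with 0 at an unadjusted p under 0.05.

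*SOCS3*, the feedback inhibitor of gp130 signalling, was at 13.1 and 15.4 CPM in control and 67.6 and 35.4 in *LA*, 46.9, 48.6 and 51.4 in sgScr, and 52.6 and 49.9 in sg*FOS*. It was higher in all fusion libraries, by 1.82 (adjusted p = 0.00697) in *LA* and 1.76 (adjusted p = 0.00432) in sgScr, and the correction left both called at 2.08 and 2.01. Its list had 3 of 12 genes higher in *LA* (25% called against 19.5% of all genes tested). In sgScr it was 3 of 11 (27.3% against 41.5%), with 0 lower in either. Of these calls 1 and 2 held after correction. The list's median in *LA* went from 0.85 to 0.18 with it. The list had 1 gene called lower in sgScr against *LA* (8.33% against 22.9% of all genes tested), *SOCS1* (-3.25, adjusted p = 0.0441). The filter kept that gene through the *LA* libraries alone, so the call is no separate support for a difference. *SOCS1* had 64 counts in *LA* replicate 2 and at most 10 in any other library.

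The list of RNA-binding proteins held AU-rich element binders and other RNA decay factors, namely *RC3H1*, *RC3H2* and *ZC3H12A*. It had 4 of 11 genes higher and 0 lower in both comparisons with control. That is 36.4% called, against 19.5% of all genes tested for *LA* and 41.5% for sgScr. The calls in *LA* included *RC3H2* and *RC3H1*. Of the calls, 2 in *LA* and 3 in sgScr held after correction. The list's median in *LA* went from 0.74 to 0.24 with it. *ZFP36*, which promotes decay of cytokine mRNAs, was at 21.9 and 27.1 CPM in control, 165 and 17.7 in *LA*, 71.0, 66.0 and 56.9 in sgScr, and 43.4 and 40.8 in sg*FOS*. Its *LA* replicates stood on either side of both control libraries, *LA* replicate 2 lower and replicate 1 higher, the reverse of *IL6* and *IL11*. It was nevertheless called higher in *LA* (1.87, adjusted p = 0.0315), and was not after correction (adjusted p = 0.0657). With *FOS* editing *ZFP36* fell by 0.61 on the log2 scale (adjusted p = 4.4e-09), as 1 of 4 genes of its list lower. That is 36.4% of the list called, against 22.7% of all genes tested. In sgScr *ZFP36* was 1.37 above control (adjusted p = 0.00651). *ZC3H12A*, which encodes the RNase regnase-1, was -0.98 in sgScr against *LA* (adjusted p = 0.00210). Its list had 2 higher and 1 lower of 11 there (27.3% called against 22.9%). *RC3H2*, a relative of roquin, was 2.59 higher in *LA* (adjusted p = 0.000714) and 2.42 higher in sgScr (adjusted p = 0.00412) than in control, and kept its call after correction.

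Some of these counts may include reads of a neighbouring gene. Annotated genes on the opposite strand overlap *IL6* (*STEAP1B* and *IL6-AS1*), *LIF* (*LIF-AS1* and *LIF-AS2*), *IL18* and *IL32*, *RNU1-125P* overlaps *IL32* on the same strand, and the strand setting of the counting is not given in the sources used here.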

How the data were processed

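RNA was sequenced from 9 A549 libraries in 4 groups given by the labels. The deposited table holds raw counts for each gene, as whole numbers that the authors did not normalise. Per the labels, reads were aligned with STAR 2.7.10b to hg19, and DESeq2 1.26.0 was used. The counting program and annotation are not given in the sources used here. All per-sample columns were used.

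Here the counts were tested in R 4.3.3 with edgeR 4.0.16 (TMM, filterByExpr, quasi-likelihood test, two-sided), fitted to only the libraries compared, and p-values were adjusted over all genes tested by Benjamini-Hochberg. A call is an adjusted p under 0.05. Levels are TMM-normalised CPM over 9 libraries, and per kilobase of the canonical GENCODE transcript on GRCh37. The correction for length and GC content was a loess offset with a span of 0.5. The fits were run on simulated counts, with 200 genes given a log2 change (median estimate 1.47 to 1.52 by edgeR). In the 4 comparisons in turn edgeR recovered 29.5%, 79.5%, 98% and 100% of these, with 5.36% to 8.26% of its calls false. DESeq2 recovered 45%, 89.5%, 98.5% and 99%, with 14.3%, 17.9%, 19.6% and 0.503% false. A gene not called in *LA* against control may thus still differ. Alternatives were DESeq2 1.42.0, other normalisations, other filters, all 9 libraries in 1 fit, a replicate block, the threshold of the study methods (absolute log2 fold change over 0.5 and unadjusted p under 0.05) and leaving out each library. With 1 library left in a group, its spread was assumed to be that of the other group. A count of 0 to 3 was treated as the floor, and intervals at 95% cover counting error only. Replicate numbers were not used as pairs.

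Members and gene lists were chosen with earlier results of these data known. Named genes were the 10 members, *FOS*, marker genes and, from each list and comparison, up to 3 called genes with the largest change among those with a mean of at least 10 counts. Python 3.11.15 was used for tables and plots. A marker gene of the leukocyte list is not reported here.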

Additional observations from a re-analysis of the deposited data

How the results depend on the processing

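The number of genes called differed by more than 1.5 times between settings in these cases, with the share of all genes called in brackets. The counts for *LA* against control and for sgScr against *LA* include *IL6*. Its calls are no separate support there, since the filter kept it through the *LA* libraries alone. For *LA* against control, 3 of the 8 tested were called (19.5%), 5 with all 9 libraries in 1 fit (45.8%), and 0 to 3 when a library was left out (1.71% to 33.6%). For sgScr against control it was 4 (41.5%), and 0 to 5 without a library (0.0209% to 78.3%). For sgScr against *LA* it was 3 (22.9%), but 5 with the length and GC correction (28.6%) and 2 to 6 without a library (2.69% to 65.1%). For sg*FOS* against sgScr it was 4 (22.7%), 3 to 5 without a library (13% to 25%), and 0 with all 9 libraries in 1 edgeR fit (0%), where 2 had an unadjusted p under 0.05. In that fit all groups share 1 estimate of spread.

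Signs turned in 7 cases, and none of these was a called value. *IL1A* in *LA* against control was 0.14 with library size alone and -0.78 to 0.29 without a library. *IL18* there was 0.10 with the length and GC correction and 0.094 with the block and correction together. In sgScr against *LA*, leaving out a library gave -0.84 to 0.19 for *IL1A*, -1.58 to 0.19 for *IL1B* and -0.25 to 0.95 for *IL32*. The cause was not tested.

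Replicate numbers only name the libraries (correlation of same-numbered deviations -0.23, 0.046, -0.018 and -0.075 in the 4 comparisons). With the number as a block, 2 of 8, 3 of 7, 3 of 8 and 5 of 7 tested genes were called. In *LA* against control and in sgScr against *LA* the calls include *IL6*, which is no separate support there. Of all genes, 10.5%, 24%, 8.47% and 22.2% were called in these fits. With the *LA* numbers crossed against control, a setting added after seeing the data, 3 of 8 were called, *IL6* among them, against 26.9% of all genes.

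Library size alone moved the median log2 fold change of all genes to 0.33 in *LA* against control and 0.20 in sgScr against control.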
